A study of Mus musculus with 5 samples.

Results

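Th neurons and NF2_Ntrk2.Necab2 neurons of the mouse lumbar dorsal root ganglion were compared with each other, gene by gene, within 5 mice. The members were the cells that the deposited annotation assigned to either type: 232 Th cells and 58 NF2_Ntrk2.Necab2 cells (NF2 cells from here on), together 290 of the 3352 annotated cells of 14 types. The raw UMI counts (unique molecular identifiers, each standing for a captured transcript) of the cells of a type were summed within each mouse, which gave 5 sums against 5 sums, paired by mouse. All cells came from untreated adult C57BL/6 mice of 18 weeks, 3 males and 2 females, whose ganglia were dissociated with collagenase and trypsin, cleaned on a Percoll gradient and loaded on a droplet assay that reads the 3′ end of transcripts. All were labelled wild type, and the sex of a library was not assigned here. Dissociation and the gradient can change which neurons are recovered, so shares of cells are shares of those recovered.

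Neurons of the dorsal root ganglion carry touch, heat, itch, pain and position from the body to the spinal cord. Low-threshold mechanoreceptors (LTMRs) respond to light touch. In hairy skin, the unmyelinated C-LTMRs are known by tyrosine hydroxylase (Th), the secreted protein TAFA4 (Fam19a4) and the vesicular glutamate transporter Slc17a8, and respond to slow stroking. The thinly myelinated A-delta LTMRs are known by the neurotrophin receptor TrkB (Ntrk2), and are tuned to the direction of hair movement. Both form lanceolate endings around the same hair follicles.

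In the deposited annotation, Th cells numbered 15, 58, 38, 61 and 60 in mice 1 to 5 and NF2 cells 3, 6, 5, 17 and 27. All values per mouse below follow this order of mice. The sums held 1037872 to 4485331 UMIs in Th and 279016 to 2390850 UMIs in NF2 neurons, so the 3 NF2 cells of mouse 1 gave the shallowest sum. Across all libraries, 7 cell barcodes occurred in more than 1 library, and 2 of them touched a Th or NF2 cell, both times with the same type in both libraries. In 36 of the 290 cells, mitochondrial rows held over 10% of the UMIs, although the study's methods state that cells above this limit were removed. The types were clustered and named by the authors from these same counts. The tests therefore describe how far the 2 types lie apart, and are not independent evidence that they differ. Levels are given in CPM, the UMIs of a gene scaled to a common total per sum. Fold changes and adjusted p-values are from edgeR's quasi-likelihood test with the mouse as a block and Benjamini-Hochberg adjustment over all 9120 genes tested, and log2 fold changes are Th minus NF2, with their SE. Where a pair of levels is joined by "against", the first is the mean of the 5 Th sums and the second that of the 5 NF2 sums, and ± is the SD over mice. A gene was called where the adjusted p was under 0.01, the fold at least 2 and a UMI was seen in at least 25% of the cells of the higher type.

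The genes that name the types set the scale. The start regions of Th and Ntrk2 are shown because their summed levels did not overlap between the types, at 163-fold and 40.6-fold apart. Single cells of the types overlapped in Th (below). Each run covers 250 bases before to 50 bases after the start of the gene in RefSeq (GRCm38.p6), read 5′ to 3′ on the strand of the gene. The Th run lies on chr7:142899946-142900245, minus strand, and the Ntrk2 run on chr13:58806319-58806618, plus strand. Capitals mark exact matches, on either strand, to the cyclic AMP response element TGACGTCA or to the RUNX motif TGTGGT.
Th: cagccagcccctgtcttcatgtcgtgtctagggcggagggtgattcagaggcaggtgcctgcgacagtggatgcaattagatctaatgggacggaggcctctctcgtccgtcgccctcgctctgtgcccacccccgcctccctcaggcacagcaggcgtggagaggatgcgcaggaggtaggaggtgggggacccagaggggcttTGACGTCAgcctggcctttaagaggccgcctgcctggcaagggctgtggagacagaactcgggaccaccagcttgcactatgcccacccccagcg
Ntrk2: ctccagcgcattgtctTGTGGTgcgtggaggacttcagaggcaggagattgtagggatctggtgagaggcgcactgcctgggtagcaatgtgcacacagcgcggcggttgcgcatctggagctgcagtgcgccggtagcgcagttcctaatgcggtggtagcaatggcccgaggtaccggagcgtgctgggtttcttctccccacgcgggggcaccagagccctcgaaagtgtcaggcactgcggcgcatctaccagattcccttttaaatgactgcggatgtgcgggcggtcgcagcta
The Th run holds 1 match to TGACGTCA, which begins at position -45 from the start, and no match to TGTGGT. The Ntrk2 run holds 1 match to TGTGGT, at position -234, and no match to TGACGTCA. Of the 27025 RefSeq promoters of the same length, 1.88% held TGACGTCA and 16.9% held TGTGGT. The matches describe the letters in these windows.

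Of the 8 C-LTMR markers, all of which were tested, 7 were higher in Th neurons and none in NF2 neurons, where 10.6% of all genes tested were higher in Th neurons. Th, the rate-limiting enzyme of catecholamine synthesis, stood at 946, 920.3, 656, 677 and 538 CPM in Th neurons and 3.58, 2.16, 1.62, 0.659 and 7.95 CPM in NF2 neurons. The groups did not overlap, and the ratio was 163-fold (log2 fold change 7.34 ± 0.27, adjusted p = 7.6e-14). Fam19a4 was at 576, 517, 560.5, 557 and 594 CPM in Th neurons and 0, 6.49, 1.62, 0.659 and 5.86 CPM in NF2 neurons, a 146-fold difference with little spread among the Th values (log2 fold change 7.19 ± 0.24, adjusted p = 2.4e-14). Slc17a8 gave 78, 65.3, 71, 86.6 and 86.4 CPM in Th neurons and 0, 0, 0, 0.659 and 2.93 CPM in NF2 neurons (log2 fold change 5.81 ± 0.31, adjusted p = 1.2e-11). No UMI of it was seen in the NF2 cells of mice 1 to 3. Runx1, a transcription factor of unmyelinated sensory neurons, was held within 214 to 231 CPM in Th neurons, against 3.96 to 14.3 CPM in NF2 neurons (log2 fold change 4.63 ± 0.19, adjusted p = 3.6e-13). Gfra2, the co-receptor for neurturin, and the zinc-finger factor Zfp521 differed less, at 338 ± 23.9 CPM in Th against 34 ± 6.8 CPM in NF2 neurons (SD, n = 5 mice) and 192 ± 32.5 CPM in Th against 31.9 ± 7.88 CPM in NF2 neurons (SD, n = 5 mice). Cdh9, a cadherin, was measured at 10.6, 11.1, 12.2, 13.7 and 13.2 CPM in Th neurons and had no UMI in NF2 neurons, which makes it at least 23.5-fold higher in Th neurons (against 3 UMIs over all NF2 cells).

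P2ry1, the remaining C-LTMR marker, did not separate the types. This receptor for extracellular ADP was measured at 374, 644, 439, 437 and 347 CPM in Th neurons and 201, 469, 612, 491 and 402 CPM in NF2 neurons. The ranges overlapped, the log2 fold change was 0.02 with a 95% interval of -0.30 to 0.34, and 2 of 5 mice were higher in Th neurons (adjusted p = 0.94). At least 1 UMI of it was seen in 100% of Th cells, 100% of NF2 cells and 6.83% of satellite glia.

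The 5 A-delta LTMR markers were each higher in NF2 neurons, where 9.71% of all genes tested were. Ntrk2 was at 25.1, 17.8, 18.1, 22.7 and 13.9 CPM in Th neurons and 659, 676, 942, 773 and 727 CPM in NF2 neurons, 40.6-fold higher in NF2 neurons with no overlap (log2 fold change -5.34 ± 0.15, adjusted p = 2.7e-15). Cadps2, which primes dense-core vesicles for release, was at 2.89, 4.46, 1.68, 3.52 and 7.64 CPM in Th neurons and 165, 219.7, 317, 339 and 343 CPM in NF2 neurons (log2 fold change -6.07 ± 0.20, adjusted p = 1.3e-14). In NF2 neurons, mouse 1 gave the lowest value of both genes. Nefh, the heavy neurofilament chain of large axons, gave 66.5, 89.4, 84.9, 59.1 and 83.7 CPM in Th neurons and 1627, 1932, 1712, 1899 and 1688 CPM in NF2 neurons (log2 fold change -4.57 ± 0.14, adjusted p = 3.8e-15). Colq, the collagen tail that anchors acetylcholinesterase, was low yet separated, at 0.964, 0, 0.84, 0.32 and 0.347 CPM in Th neurons and 7.17, 9.74, 16.2, 13.8 and 17.1 CPM in NF2 neurons (log2 fold change -4.99 ± 0.45, adjusted p = 2.2e-08). Necab2, the calcium-binding protein that shares the name of the type with Ntrk2, separated least of the 5. Its levels were 81.9, 56.6, 47.5, 92.4 and 76.7 CPM in Th neurons and 100.3, 162, 245, 285 and 229.6 CPM in NF2 neurons, 3.05-fold higher in NF2 neurons (log2 fold change -1.61 ± 0.17, adjusted p = 1.9e-07). The lowest NF2 value of Necab2, in mouse 1, lay just above the highest Th value, in mouse 4.

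**Figure D1:**
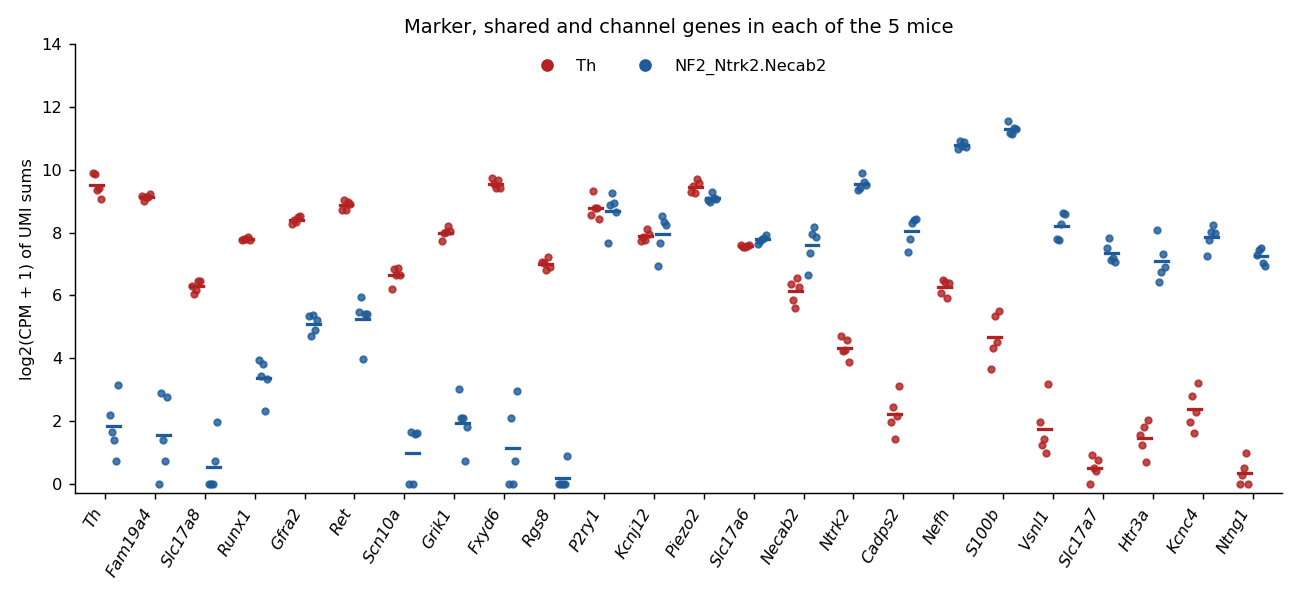
Level of 24 genes in the UMI sums of each mouse, as log2(CPM + 1), for Th neurons (red) and NF2_Ntrk2.Necab2 neurons (blue). Points are the 5 mice and bars their means on this scale. The first 10 genes lie higher in Th neurons in every mouse, P2ry1, Kcnj12, Piezo2 and Slc17a6 lie close together, and the remaining 10 lie higher in NF2 neurons.

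In single cells, whose counts the authors' clustering had used, levels were scaled to 10000 UMIs. Ntrk2 ranged from 4.08 to 20.3 in NF2 cells and from 0 to 0.918 in Th cells, so no cell of either type lay in the gap. Ntrk2 was also abundant outside neurons: a UMI was seen in 57.3% of Th cells, 100% of NF2 cells and 100% of satellite glia. Satellite glia had a mean of 579 CPM, and the median depth was 17729 UMIs in satellite glia, 56281 in Th cells and 96530.5 in NF2 cells. Fam19a4 was seen in 231 of the 232 Th cells and in 8 of the 58 NF2 cells, and in 2.01% of satellite glia. A single NF2 cell of mouse 5 (97068 UMIs) had the highest NF2 levels of Th, Fam19a4 and Slc17a8, at 1.65, 1.03 and 0.412. Whether it was a doublet was not tested. The Th gene itself was more uneven. It had no UMI in 19 of the 232 Th cells, and 18 of these 19 had a UMI of Fam19a4. In 45 Th cells, or 19.4%, the Th gene stayed under 1 UMI per 10000, while their median of Fam19a4 was 4.1 per 10000 against 5.65 in the other 187 Th cells. These 45 cells made up 13.3, 13.8, 26.3, 8.2 and 33.3% of the Th cells of mice 1 to 5. They had a median of 46274 UMIs against 58072 in the other Th cells.

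**Figure D2:**
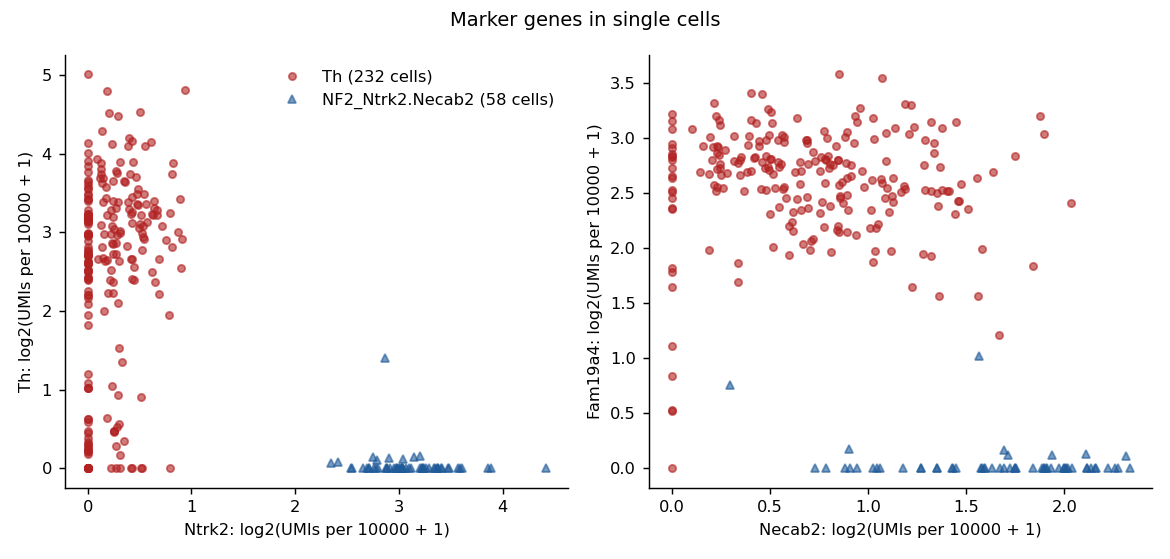
Marker levels in single cells as log2(UMIs per 10000 + 1), with Th against Ntrk2 on the left and Fam19a4 against Necab2 on the right, for 232 Th cells (red circles) and 58 NF2_Ntrk2.Necab2 cells (blue triangles). The NF2 cells sit apart along Ntrk2, Th cells spread down to 0 along the Th axis, and Necab2 overlaps between the types.

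Markers of glia were higher in Th than in NF2 neurons wherever they were called. Among all genes tested, 10.6% were higher in Th and 9.71% higher in NF2 neurons. The summed level of the 8 satellite glia markers had a median of 280.4 CPM in Th neurons (range 149 to 418) and 171 CPM in NF2 neurons (140 to 204), against 93104 CPM in satellite glia. Apoe, the apolipoprotein that glia make in quantity, was the only one of the 4 tested members that was called, at 21.2, 268, 235, 111 and 138 CPM in Th neurons and 35.8, 54.1, 30.9, 53.4 and 30.1 CPM in NF2 neurons (log2 fold change 1.87 ± 0.23, adjusted p = 1.7e-06). In mouse 1 Apoe was lower in Th than in NF2 neurons, so the direction held in 4 of 5 mice. The adjusted p was 0.012 with DESeq2. The 5 Schwann cell markers summed to a median of 1776 CPM in Th neurons (1483 to 2023) and 527 CPM in NF2 neurons (401 to 582), and both tested members were higher in Th neurons. Pmp22, a myelin protein that neurons also make, was at 1531 ± 257 CPM in Th against 493 ± 70.1 CPM in NF2 neurons (SD, n = 5), and Mbp, myelin basic protein, at 204 ± 31.1 CPM in Th against 9.23 ± 6.39 CPM in NF2 neurons. The Schwann markers Prx and Ncmap were too low to be tested, with 7 and 56 UMIs in all Th cells and 0 and 7 in all NF2 cells. The satellite glia marker Cdh19 had no UMI in either type. Of the endothelial markers, Egfl7 was tested and was higher in Th neurons (139 ± 14.5 CPM in Th against 57.2 ± 10.7 CPM in NF2 neurons), while the macrophage markers reached at most 10.8 CPM in sum and the fibroblast markers 6.69 CPM. Among 11 markers of other neurons 4 were tested, and 1 was called in each direction. Without mouse 5 none was called higher in NF2 neurons, and without mouse 2, 2 were called higher in Th neurons. Tac1, the precursor of substance P, was higher in Th neurons (287 against 3.66 CPM), and Calb1, calbindin, was higher in NF2 neurons (165, 7.58, 6.5, 28.4 and 24.7 CPM in mice 1 to 5, against at most 2.43 CPM in Th neurons), with the 3 cells of mouse 1 far above the other mice. Nts, neurotensin, was not tested because its UMIs were in few sums, at 0, 320.4, 0, 0 and 0.418 CPM in NF2 neurons, nearly all in mouse 2. The part of these other cells' RNA in the results below was not tested.

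Across the 14 types, 7 of the 8 C-LTMR markers had their highest mean in Th neurons, by margins that differed widely, and several genes of NF2 neurons were shared with the larger neurofilament types. Mean Th was 747 CPM in Th neurons, and the next type, PEP1_Dcn, stood at 96.4 CPM. Fam19a4 fell from 561 CPM to 19.2 CPM in NP_Mrgprd, the next highest. Other markers were less restricted in level. Gfra2 was at 338 CPM in Th and 175 CPM in NP_Mrgprd neurons, and Zfp521 at 192 CPM in Th and 78.2 CPM in PEP3_Trpm8 neurons. P2ry1 was nearly as high in NF2 neurons, at 435 CPM against 448 CPM in Th neurons. Runx1 was highest in PEP3_Trpm8 neurons, at 234 CPM against 220.2 CPM in Th neurons, and was at 173 to 180 CPM in NP_Mrgprd, NP_Nts and PEP1_Slc7a3.Sstr2 neurons. Cadps2 stood at 277 CPM in NF2 neurons and at 27.8 CPM in the next type, NF_Calb1. Colq was at 12.8 CPM in NF2 neurons against 1.74 CPM in NF_Pvalb. In contrast, Nefh was 5533 and 5351 CPM in NF_Pvalb and NF_Calb1 neurons, above the 1772 CPM of NF2 neurons. Necab2 was also high in PEP3_Trpm8 neurons, at 137 CPM against 205 CPM in NF2 neurons. These are means of 5 mice, given as a description.

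**Figure D3:**
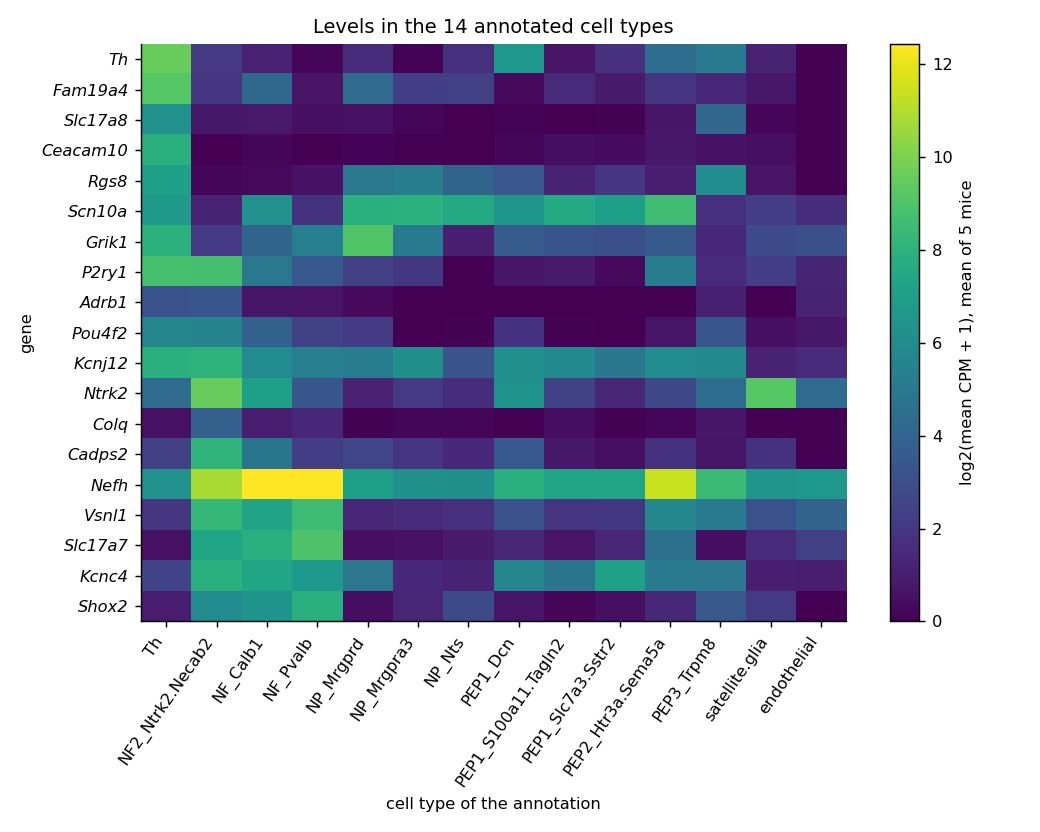
Mean level of 19 genes in the 14 annotated cell types as log2(mean CPM + 1), each a mean of 5 mice. Th, Fam19a4, Slc17a8 and Ceacam10 peak in Th neurons, P2ry1, Adrb1, Pou4f2 and Kcnj12 are highest in both compared types, and Nefh, Vsnl1, Slc17a7 and Shox2 extend to NF_Calb1 and NF_Pvalb neurons.

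Of the 9120 genes tested, 964 were higher in Th neurons (10.6%) and 886 were higher in NF2 neurons (9.71%), and the median log2 fold change of all genes tested was 0.05. Of the 964 genes, 289 had their highest mean among all 14 types in Th neurons. Of the 886 genes, 203 were highest in NF2 neurons, 186 in NF_Pvalb and 184 in NF_Calb1 neurons. By DESeq2 the counts were 858 and 868 genes, of which 849 and 846 were shared with those of edgeR. Summing equal numbers of cells per type and mouse left fewer UMIs and 6884 testable genes, of which 639 were higher in Th and 637 higher in NF2 neurons. Without mouse 1, with its 3 NF2 cells, 971 and 995 were called.

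Among the 8 largest differences in the direction of Th neurons, most were close to presence against absence. Ceacam10, of the carcinoembryonic antigen family, was measured at 429.7, 183, 353, 94.9 and 109.7 CPM in Th neurons and without a UMI in NF2 neurons, at least 373-fold higher. It was also uneven among Th cells: 61.2% of them held a UMI, against 1.2% of satellite glia, and mice 4 and 5 were lowest. Prss23, a secreted serine protease, Slc51a, a subunit of an organic solute transporter, and C1ql4, a secreted C1q-like protein, had no UMI in NF2 neurons either and were at least 51.3, 56.7 and 39.4 times higher in Th neurons. A UMI of Prss23 was seen in 57.8% of satellite glia and 57.3% of Th cells, at median depths of 17729 and 56281 UMIs. Its mean level was 68 CPM in satellite glia and 80.1 CPM in endothelial cells, above the 26.2 CPM of Th neurons. Slc51a and C1ql4 had no UMI in satellite glia. Rgs8, a regulator of G protein signalling, was at 132, 128, 112, 149 and 118 CPM in Th neurons, with 2 UMIs over all NF2 cells. The ratio of its summed levels was 367 (exact 95% counting interval 101 to 3034). Dgkk, a diacylglycerol kinase on the X chromosome, and Cacna1i, a T-type calcium channel, had 1 UMI each in NF2 neurons, at 52 and 50.4 CPM in Th neurons. Over all 14 types, Cacna1i reached no more than 0.993 CPM outside Th neurons. Fxyd6, a regulator of the sodium pump, was at 849, 744, 676, 815 and 678 CPM in Th neurons and 0, 3.25, 0, 0.659 and 6.69 CPM in NF2 neurons (log2 fold change 7.74 ± 0.28, adjusted p = 4.2e-14).

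In the opposite direction, the 8 largest differences included Slc17a7 (below) and 7 others. Rasl10b, a small GTPase, was at 96.8, 63.9, 69.8, 96.9 and 68.6 CPM in NF2 neurons and had no UMI in 232 Th cells, which makes it at least 356-fold higher in NF2 neurons. Ntng1, the synaptic adhesion protein netrin-G1, was at 0, 0.223, 0.42, 0.959 and 0 CPM in Th neurons and 154, 173, 180.3, 131 and 121 CPM in NF2 neurons (log2 fold change -8.52 ± 0.27, adjusted p = 7.2e-15). Gda, guanine deaminase, gave 0, 0.446, 0.42, 0.32 and 0.347 CPM in Th neurons and 251, 174, 110.5, 122 and 116 CPM in NF2 neurons (log2 fold change -8.45 ± 0.24, adjusted p = 2.5e-15), with its highest NF2 value in mouse 1. A UMI of Rasl10b, Ntng1 and Gda was seen in 98.3, 100 and 100% of NF2 cells, in 0, 2.16 and 2.16% of Th cells and in 2.41, 3.21 and 1.61% of satellite glia. Tmem108, Grm4, a metabotropic glutamate receptor, and Lrrn2, a leucine-rich repeat membrane protein, had 1, 2 and 1 UMIs in all Th cells, at 71.9, 46.9 and 32.4 CPM in NF2 neurons. Vat1l was at 0.46 ± 0.333 CPM in Th against 152 ± 46.2 CPM in NF2 neurons (SD, n = 5, log2 fold change -7.97 ± 0.23, adjusted p = 2.8e-15), with 283 CPM in PEP1_Dcn neurons, the highest type.

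**Figure D4:**
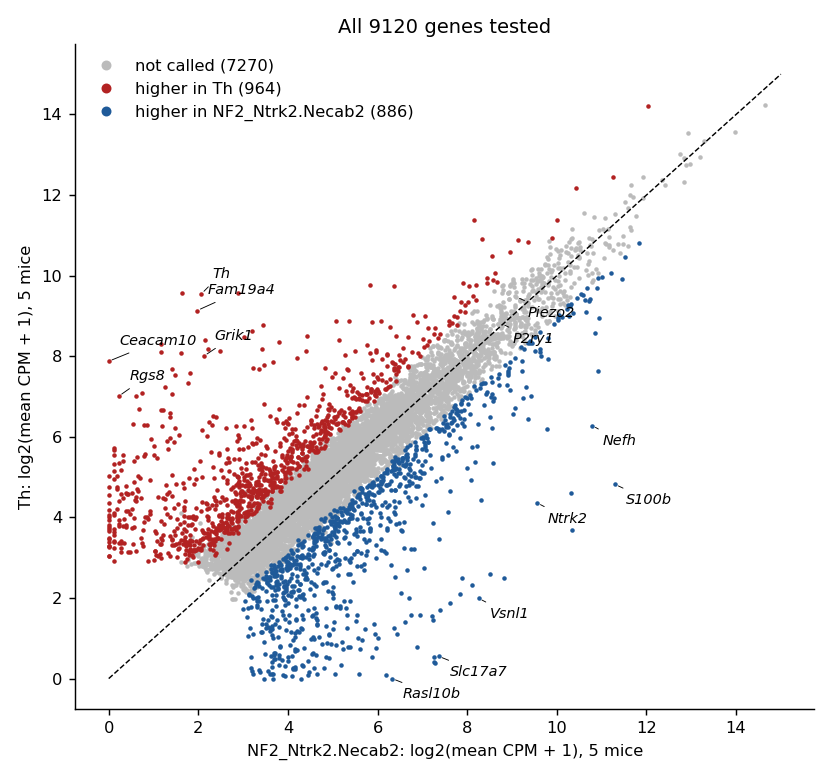
Mean level of the 9120 genes tested in Th neurons against NF2_Ntrk2.Necab2 neurons, each as log2(mean CPM + 1) over 5 mice. The 964 genes called higher in Th are red, the 886 called higher in NF2 are blue, the others are grey, and the dashed line marks equal levels. P2ry1 and Piezo2 lie near the line, while Ceacam10 and Rasl10b lie at the axes.

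Other genes were highest in both types alike. Genes seen in at least 25% of the cells of both types were ranked by mean CPM over the 14 types. The count was made for this pair of types only. Of the 9120 genes tested, 159 passed this share, were not called, and had Th and NF2 neurons as their highest 2 types. For 10 of them the lower of both was at least 2 times the third type, and these 10 were chosen after their values were seen. P2ry1 stood out, with 448 and 435 CPM against 36 CPM in the third type, PEP2_Htr3a.Sema5a. Kcnj12, an inward rectifier potassium channel, was at 211, 231, 215, 278 and 245 CPM in Th neurons and 122, 202, 365, 319 and 302 CPM in NF2 neurons, against 75.3 CPM in PEP1_Dcn. Its difference was -0.16 on the log2 scale with an interval of -0.48 to 0.15. Pou4f2, a POU homeodomain factor, was at 49.2 ± 4.16 CPM in Th against 46.9 ± 9.61 CPM in NF2 neurons (SD, n = 5), against 13.7 CPM in NF_Calb1. Its interval, -0.25 to 0.33 in log2 units, bounds any difference to under 1.5 times. Adrb1, the beta adrenergic receptor, was low at 7.86 ± 2.87 CPM in Th against 9.17 ± 7.54 CPM in NF2 neurons and reached 1.32 CPM in the third type. Its interval was wide, -0.70 to 0.73. The other 6 were Defb42, Card14, Myo1a, Brinp2, Irf5 and D130009I18Rik. Among these, Myo1a, an unconventional myosin, was higher in Th neurons (57.8 ± 9.53 CPM in Th against 30.2 ± 17.5 CPM in NF2 neurons, adjusted p = 0.0003) by less than 2-fold.

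Receptors for growth factors were divided between the types. Of the 9 tested of 11 listed, 4 were higher in Th and 4 higher in NF2 neurons (median log2 fold change 0.58). Over all genes tested these shares were 10.6% and 9.71%. Ret, the signalling receptor of the GDNF family, was at 420.1, 526, 421, 503 and 479 CPM in Th neurons and 43, 60.6, 14.6, 41.5 and 41 CPM in NF2 neurons (log2 fold change 3.54 ± 0.16, adjusted p = 8.6e-13). Its co-receptors went different ways: Gfra2 (above) and Gfra4 (49.5 against 15 CPM) were higher in Th neurons, and Gfra1 was higher in NF2 neurons, at 46.6, 55.2, 9.75, 11.9 and 15.9 CPM against at most 2.24 CPM in Th neurons (log2 fold change -3.99 ± 0.35, adjusted p = 1.4e-08). Among NF2 neurons, Gfra1 was higher in mice 1 and 2 than in mice 3 to 5. Ngfr, the low-affinity neurotrophin receptor, and Sort1, sortilin, were higher in NF2 neurons with Ntrk2 (143 against 496 CPM and 7.01 against 41.7 CPM). Ntrk3, the receptor of neurotrophin-3, was not called (95.2 ± 15.4 CPM in Th against 66.9 ± 21.8 CPM in NF2 neurons, adjusted p = 0.0019, under 2-fold). Bdnf, the ligand of the Ntrk2 receptor, was at 13.5, 11.8, 13.9, 8.95 and 19.1 CPM in Th neurons and 68.1, 85.5, 76.3, 97.6 and 114 CPM in NF2 neurons (log2 fold change -2.81 ± 0.16, adjusted p = 4e-11). Over the 14 types, NF2 neurons ranked only 10 for Bdnf. The highest type, PEP1_Slc7a3.Sstr2, had 586 CPM of Bdnf and 1.54 CPM of Ntrk2.

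Vesicular glutamate transporters differed between the types. Slc17a8 marked Th neurons (above), and Slc17a7, which loads glutamate into synaptic vesicles of large sensory neurons, was at 0, 0.892, 0.42, 0.32 and 0.694 CPM in Th neurons and 179, 225, 139.7, 145 and 131 CPM in NF2 neurons (log2 fold change -8.08 ± 0.22, adjusted p = 2.5e-15). Slc17a6, the transporter that most sensory neurons share, was at 195, 185, 186, 189.8 and 193 CPM in Th neurons and 197, 213, 223, 228 and 239 CPM in NF2 neurons and was not called (log2 fold change -0.26, adjusted p = 0.046). Of the catecholamine genes, 8 of 17 listed were tested (median -0.05). Th, which also names the type, was the only one called in Th neurons. Without mouse 3, mouse 4 or mouse 5, 2 were called there. Among all genes tested, 10.6% were higher in Th and 9.71% higher in NF2 neurons. Ddc, the next enzyme of the pathway, and the transporter Slc18a2 were too low to be tested. Comtd1, a methyltransferase-like gene, was higher in NF2 neurons by a fold close to 2 (28.6 against 59.1 CPM, log2 fold change -1.01 ± 0.16, adjusted p = 2e-05) and was not called without mouse 1 or mouse 4. Pcbd1, which recycles the cofactor that the Th enzyme needs, was at 302 ± 28.9 CPM in Th against 150.3 ± 15 CPM in NF2 neurons, just under 2-fold higher in Th neurons (log2 fold change 0.97 ± 0.11, adjusted p = 2.8e-07).

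Release machinery was called in both directions. Of the 43 tested genes among synaptotagmins, SNAREs, complexins and related proteins, 7 were higher in Th and 9 higher in NF2 neurons (median 0.12), where 10.6% and 9.71% of all genes tested were. Syt7, a slow calcium sensor of exocytosis, was at 330.5, 450.1, 335, 365 and 313 CPM in Th neurons and 3.58, 21.6, 27.6, 27 and 23 CPM in NF2 neurons (log2 fold change 3.93 ± 0.17, adjusted p = 5.8e-13). Cplx2, a complexin, was also higher in Th neurons (57.8 against 1.76 CPM). Sv2b, a synaptic vesicle glycoprotein, gave 0, 0.669, 1.26, 0.32 and 1.39 CPM in Th neurons and 115, 118, 115, 125 and 111 CPM in NF2 neurons (log2 fold change -7.13 ± 0.24, adjusted p = 2.4e-14), while its relative Sv2a was higher in Th neurons (54.8 against 18.9 CPM). Rab3b, a vesicle GTPase, was at 25.1, 81.2, 110.5, 111 and 101 CPM in NF2 neurons, lowest in mouse 1, and at most 2.89 CPM in Th neurons. Syt11, the member with most UMIs that was not called, was at 1072 ± 101 CPM in Th against 1249 ± 167 CPM in NF2 neurons, and 27 of the 43 were not called.

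Cytoskeletal and calcium-binding genes differed with large values. The 3 neurofilament chains were each higher in NF2 neurons: Nefh (above), Nefm at 197 ± 29.4 CPM in Th against 1945 ± 372 CPM in NF2 neurons (log2 fold change -3.32 ± 0.15, adjusted p = 8.3e-13) and Nefl at 963 against 2822 CPM. Ina, Vim and Prph, which encode internexin, vimentin and peripherin, were higher in Th neurons, at 44.3 against 0.551 CPM, 85 against 8.08 CPM and 5598 against 2426 CPM. A UMI of Vim was seen in 91.4% of Th cells, 31% of NF2 cells and 100% of satellite glia, and the part of glial RNA in its level was not tested. Among 19 tested calcium-binding proteins, 3 were higher in Th and 5 higher in NF2 neurons (median -0.16). The corresponding shares of all genes tested were 10.6% and 9.71%. S100b was at 11.6, 19, 39.5, 22.1 and 44.1 CPM in Th neurons and 2982, 2280.5, 2246, 2590.4 and 2513 CPM in NF2 neurons, 94.2-fold higher in NF2 neurons (log2 fold change -6.56 ± 0.23, adjusted p = 2.9e-14). Vsnl1, the calcium sensor visinin-like protein, was at 2.89, 1.34, 1.68, 0.959 and 7.98 CPM in Th neurons and 222, 214, 307, 397 and 387 CPM in NF2 neurons (log2 fold change -6.79 ± 0.24, adjusted p = 4.2e-14). Of its relatives, hippocalcin (Hpca) and neurocalcin (Ncald) were higher in Th neurons, at 112 ± 19.8 CPM in Th against 10 ± 4.34 CPM in NF2 neurons and 177 ± 52.9 CPM in Th against 30.8 ± 18.6 CPM in NF2 neurons. Without mouse 5, the count higher in NF2 neurons was 3 in place of 5.

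Most ion channel families had members called in both directions, where 10.6% and 9.71% of all genes tested were higher in Th and in NF2 neurons. Among 15 tested sodium channel genes of 18 listed, 6 were higher in Th and 6 higher in NF2 neurons (median 0.68). Scn10a and Scn11a, 2 tetrodotoxin-resistant channels, were higher in Th neurons. Over the 14 types, Th neurons ranked 7 for Scn10a, and PEP2_Htr3a.Sema5a neurons were highest at 399 CPM. Scn10a was at 72.3, 114, 99.6, 116 and 99.6 CPM in Th neurons and 0, 2.16, 0, 1.98 and 2.09 CPM in NF2 neurons (log2 fold change 5.85 ± 0.25, adjusted p = 4.7e-13) and Scn11a at 88.4 against 1.59 CPM. Among beta subunits, Scn2b had 1 UMI in all NF2 cells against 28.9, 39.7, 31.1, 35.5 and 41 CPM in Th neurons, and Scn3b was at 76.4 against 7.09 CPM. Scn4b, the beta subunit linked to fast resurgent current, ran the other way at 6.74, 14.5, 12.6, 11.2 and 14.9 CPM in Th neurons and 100.3, 117, 78, 87 and 74 CPM in NF2 neurons (log2 fold change -2.85 ± 0.17, adjusted p = 5.3e-11). Scn8a and Scn1a, channels of nodes and fast-firing neurons, were higher in NF2 neurons (44.1 against 173 CPM and 31.6 against 84.3 CPM). Scn9a was not called (339 against 181 CPM), nor was Fgf13, a cytoplasmic partner of sodium channels (249 ± 32 CPM in Th against 389 ± 56.9 CPM in NF2 neurons, log2 fold change -0.69 ± 0.11, adjusted p = 3.9e-05).

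Of 27 tested voltage-gated potassium channel genes of 51 listed, 9 were higher in Th and 10 higher in NF2 neurons (median -0.09). The corresponding shares of all genes tested were 10.6% and 9.71%. Kcnip2, Kcnip4, Kcnd3, Dpp6 and Dpp10, subunits of A-type potassium channels, were higher in Th neurons together with Kcna4. Kcnip2 was at 191, 167, 177, 149 and 117 CPM in Th neurons and 3.58, 3.25, 0, 2.64 and 2.51 CPM in NF2 neurons (log2 fold change 5.83 ± 0.23, adjusted p = 1.2e-13), Kcnip4 at 278 against 20.1 CPM, Kcnd3 at 268 against 55.9 CPM and Dpp6 at 153 against 25.8 CPM. An exception in this complex was Kcnip3, higher in NF2 neurons (39.3 against 98.8 CPM), and Kcnd1 was not called (141 against 115 CPM). Kcnc4 and Kcnc1, channels of fast repolarization, and the silent subunit Kcns3 were higher in NF2 neurons. Kcns3 was at 2.89, 1.11, 5.88, 0 and 3.47 CPM in Th neurons and 168, 179.7, 231, 193 and 206 CPM in NF2 neurons (log2 fold change -6.40 ± 0.26, adjusted p = 2.9e-13), Kcnc4 at 2.89, 6.02, 2.1, 3.84 and 8.33 CPM in Th neurons and 151, 216, 258, 303 and 253 CPM in NF2 neurons (log2 fold change -5.62 ± 0.20, adjusted p = 4.2e-14), and Kcnc1 at 7.62 against 72 CPM. Their relative Kcnc2 was higher in Th neurons (34 against 14.1 CPM). The axonal channels Kcna1 and Kcna2 with their beta subunit Kcnab1 were higher in NF2 neurons as well, at 128 against 689 CPM, 134 against 375 CPM and 80.5 against 236 CPM. Kcnab2, another beta subunit, was under 2-fold apart and not called (284 ± 33 CPM in Th against 427 ± 37.6 CPM in NF2 neurons). Kcng2 had 1 UMI in NF2 cells (12.2 CPM in Th neurons).

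Of 34 listed leak, inward rectifier and calcium-activated potassium channels, 10 were tested, 4 were higher in NF2 and 1 higher in Th neurons (median -0.76). Among all genes tested, 9.71% were higher in NF2 and 10.6% higher in Th neurons. Kcnk18, a leak channel known from trigeminal and dorsal root neurons, was at 1.93, 0.446, 0, 0 and 2.78 CPM in Th neurons and 14.3, 16.2, 30.9, 22.4 and 28.4 CPM in NF2 neurons (log2 fold change -4.62 ± 0.44, adjusted p = 4.6e-08). Kcnk1 and Kcnk3 were at 29.5 against 271 CPM and 2.48 against 32.5 CPM. Kcnk13 was the member higher in Th neurons, at 24 ± 5.84 CPM in Th against 10.5 ± 3.9 CPM in NF2 neurons (adjusted p = 0.00039). Of 12 tested calcium channel genes, 3 were higher in Th and 2 higher in NF2 neurons (median -0.07). The T-type channels were divided, with Cacna1i in Th neurons and Cacna1h, known as the T-type channel of down-hair mechanoreceptors, at 34.7, 38.8, 35.3, 33.9 and 24.6 CPM in Th neurons and 125, 132, 153, 131 and 108 CPM in NF2 neurons (log2 fold change -1.99 ± 0.12, adjusted p = 1e-10). The presynaptic channels differed in opposite directions, with Cacna1b at 138 against 45.7 CPM and Cacna1a at 18.2 against 42.2 CPM. Cacng5 had 1 UMI in NF2 cells and 8.48 CPM in Th neurons, and Cacnb3, a beta subunit, was not called (356 ± 13.4 CPM in Th against 235 ± 13.1 CPM in NF2 neurons). None of the 3 tested HCN pacemaker channels was called by edgeR. Hcn2 was at 28.9 ± 8.26 CPM in Th against 59.8 ± 19.4 CPM in NF2 neurons, with a fitted log2 fold change of -0.94 (unadjusted p = 3.7e-05, adjusted p = 0.00017), and 1 of the 3 was called without mouse 2. At an unadjusted p under 0.05 with no minimum fold, 1 of the 3 passed.

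**Figure D5:**
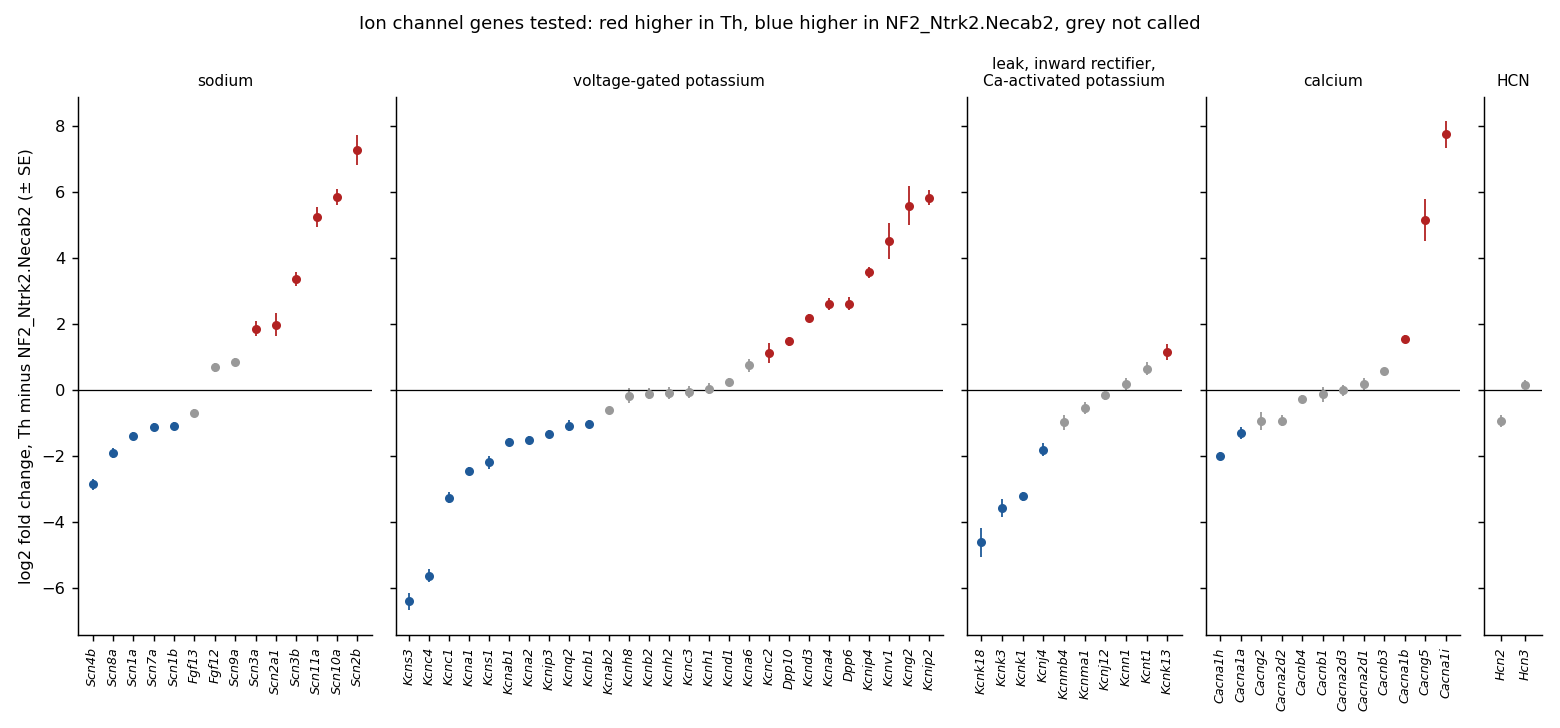
Fitted log2 fold change (Th minus NF2_Ntrk2.Necab2) with its SE for tested members of 5 ion channel lists, ordered within a list. Red points were called higher in Th, blue points higher in NF2, and grey points were not called. Members with 3 or fewer UMIs in NF2 cells (Scn2b, Kcng2, Kcnv1, Cacna1i, Cacng5) have fitted values that depend on the prior count.

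Of the 9 tested genes of mechanical transduction, of 20 listed, 1 was higher in Th and 1 higher in NF2 neurons (median 0.21), shares near the 10.6% and 9.71% of all genes tested. Piezo2, the channel of light touch, was at 627, 712, 614, 839.9 and 756 CPM in Th neurons and 523, 504, 627, 545 and 532 CPM in NF2 neurons, 1.27-fold higher in Th neurons (log2 fold change 0.35 ± 0.12, adjusted p = 0.019). It passed an adjusted p of 0.01 without mouse 3 (0.00014, log2 fold change 0.50). Over the 14 types these were the highest 2 means of Piezo2, and the third was NF_Calb1 at 345 CPM. Asic1, an acid-sensing channel, was higher in Th neurons, at 30.8, 29.4, 29, 35.2 and 28.8 CPM in Th neurons and 0, 0, 1.62, 0.659 and 0.837 CPM in NF2 neurons (log2 fold change 5.32 ± 0.37, adjusted p = 5.7e-10), and its relative Asic2 was not called (81.6 against 88.3 CPM). Tmem63c was higher in NF2 neurons (4.81 ± 2.26 CPM in Th against 10.4 ± 2.58 CPM in NF2 neurons, log2 fold change -1.28 ± 0.31, adjusted p = 0.0019), a call that was lost without mouse 4 or 5 and by DESeq2 (adjusted p = 0.015, 0.04 and 0.014).

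Of 7 tested TRP channels, 3 were higher in Th and 1 higher in NF2 neurons (median 0.63). The corresponding shares of all genes tested were 10.6% and 9.71%. Trpa1, the irritant receptor, was at 14.5, 13.6, 16.4, 14.7 and 16 CPM in Th neurons and had no UMI in NF2 cells, at least 28.4-fold higher. Its highest type was PEP1_Dcn, at 124 CPM. Trpm4 was higher in Th neurons as well (13.5 against 4.82 CPM), and Trpv2 was not called (45.5 ± 15.6 CPM in Th against 51.9 ± 18.8 CPM in NF2 neurons). Trpm2 was low and higher in NF2 neurons (1.22 ± 1.15 CPM in Th against 9.74 ± 4.22 CPM in NF2 neurons). Of the purinergic receptors, P2rx3, an ATP-gated channel, was the only one of 5 tested that was called, at 5.78, 30.8, 11.3, 20.5 and 9.02 CPM in Th neurons and 3.58, 2.16, 3.25, 1.98 and 2.51 CPM in NF2 neurons (log2 fold change 2.62 ± 0.36, adjusted p = 5.4e-06). Trpm2 without mouse 5, and P2rx3 without mouse 4 or mouse 5, fell under the filter on low counts. Without mouse 1, 2 purinergic receptors were higher in Th and 1 in NF2 neurons.

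Receptors for transmitters were called in both directions, where 10.6% and 9.71% of all genes tested were higher in Th and in NF2 neurons. Not called were 5 of 11 tested glutamate receptors and 7 of 12 tested genes for GABA receptors and chloride cotransporters. Among 11 tested glutamate receptors (median -0.62), the kainate subunits Grik1 and Grik4 were higher in Th neurons and 3 AMPA subunits, with Grm4, were higher in NF2 neurons. Grik1 was at 210.1, 255, 259, 293 and 264 CPM in Th neurons and 7.17, 3.25, 3.25, 0.659 and 2.51 CPM in NF2 neurons (log2 fold change 6.69 ± 0.23, adjusted p = 3.5e-14). Grik4 was at 29.1 ± 3.43 CPM in Th against 6.46 ± 4.38 CPM in NF2 neurons and Gria4, an AMPA subunit, at 3.88 ± 1.26 CPM in Th against 23.6 ± 8.64 CPM in NF2 neurons (log2 fold change -2.39 ± 0.27, adjusted p = 4.8e-07). Without mouse 5, 2 in place of 4 glutamate receptors were higher in NF2 neurons. Grin1, the obligatory NMDA subunit, was not called (21.5 ± 4.43 CPM in Th against 21.4 ± 6.13 CPM in NF2 neurons). Of 12 tested genes for GABA receptors and chloride cotransporters (median -0.26), 2 were higher in Th neurons, Gabra3 and Slc12a7, and 3 in NF2 neurons, Gabrb2 and Gabrg1 among them. Gabrb2 was at 7.71, 11.1, 5.88, 8.31 and 8.68 CPM in Th neurons and 57.3, 111, 109, 140.4 and 135 CPM in NF2 neurons (log2 fold change -3.79 ± 0.17, adjusted p = 1.2e-12). Gabra3 had 1 UMI in NF2 cells and 22.7 CPM in Th neurons, and Gabrg1 had 2 UMIs in Th cells and 14.4 CPM in NF2 neurons. Gabbr1 was not called (189 ± 12.5 CPM in Th against 148 ± 6.65 CPM in NF2 neurons).

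Most tested serotonin receptors were higher in NF2 neurons. Of 27 listed receptors for opioids, serotonin and adrenaline, 7 were tested, 5 were higher in NF2 neurons and none in Th neurons (median -1.91). Among all genes tested, 9.71% were higher in NF2 and 10.6% higher in Th neurons. Htr3a, the serotonin-gated channel, was at 1.93, 1.34, 2.52, 0.639 and 3.12 CPM in Th neurons and 269, 84.4, 106, 157 and 118 CPM in NF2 neurons (log2 fold change -6.09 ± 0.23, adjusted p = 9.5e-14), with its highest NF2 value in mouse 1. Its partner subunit Htr3b was at 0.708 against 41 CPM, and Htr7, Htr1d and the nociceptin receptor Oprl1 at 0.262 against 18.9 CPM, 37.9 against 96.5 CPM and 3.9 against 14.4 CPM. Over all 14 types, Htr3a was highest in PEP2_Htr3a.Sema5a neurons, at 634 CPM.

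Genes that act downstream of receptors were called in both directions. Of 31 tested G protein subunits and RGS proteins, 6 were higher in Th and 5 higher in NF2 neurons (median 0.14), where 10.6% and 9.71% of all genes tested were. Rgs10 was at 2744, 2681, 2137, 3024 and 2709 CPM in Th neurons and 86, 200.2, 356, 379 and 388 CPM in NF2 neurons (log2 fold change 3.24 ± 0.22, adjusted p = 4.6e-10). Among NF2 neurons, mouse 1 had the lowest Rgs10 level. Rgs7 and Rgs12 were higher in NF2 neurons (8.94 ± 3.79 CPM in Th against 61.2 ± 8.1 CPM in NF2 neurons and 1.65 ± 1.2 CPM in Th against 15.2 ± 5.06 CPM in NF2 neurons), and Gnas, the stimulatory G protein, was not called (1388 ± 178 CPM in Th against 1432 ± 123 CPM in NF2 neurons). Of 20 tested cyclic nucleotide enzymes, 3 were higher in Th neurons, which was 1 without mouse 5, and 5 were higher in NF2 neurons (median -0.18). Adcy1, a calcium-stimulated adenylyl cyclase, was at 31.1 ± 5.82 CPM in Th against 94.6 ± 19.8 CPM in NF2 neurons (log2 fold change -1.64 ± 0.13, adjusted p = 3.2e-09), and Prkg2, a cGMP-dependent kinase, at 9.71 ± 2.79 CPM in Th against 23.8 ± 14.5 CPM in NF2 neurons. Pde1b had 2 UMIs in NF2 cells (9.73 CPM in Th neurons), and Pde7a, at 15.2 ± 2.29 CPM in Th against 7.25 ± 4.96 CPM in NF2 neurons, lost its call without mouse 5 (adjusted p = 0.011). Prkaca, the catalytic subunit of protein kinase A, was not called (219.6 ± 27.3 CPM in Th against 197 ± 15.4 CPM in NF2 neurons).

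Of 11 tested neuropeptides and secreted ligands, 4 were higher in each type (median -0.18), where 10.6% (Th) and 9.71% (NF2) of all genes tested were. Tac1 was at 392, 299, 283, 159 and 299.5 CPM in Th neurons and 0, 5.41, 1.62, 3.3 and 7.95 CPM in NF2 neurons (log2 fold change 5.68 ± 0.21, adjusted p = 9e-14). Over the 14 types, Th neurons ranked 7 and NF2 neurons 14 for Tac1, and PEP1_S100a11.Tagln2 neurons were highest at 6434 CPM. A UMI of Tac1 was seen in 97.4% of Th cells, 29.3% of NF2 cells and 39% of satellite glia. Calcb, a calcitonin gene-related peptide, and Nmb, neuromedin B, were also higher in Th neurons (308 against 52.9 CPM and 61.5 against 6.45 CPM). The TAFA family was divided between the types. Fam19a4 marked Th neurons, while Fam19a2 was at 0.964, 0.223, 0.84, 0.639 and 0.694 CPM in Th neurons and 35.8, 49.8, 50.4, 56.7 and 46 CPM in NF2 neurons (log2 fold change -6.29 ± 0.29, adjusted p = 1.2e-12) and Fam19a3 and Fam19a5 were at 7.69 against 48.4 CPM and 8.29 against 22.7 CPM. Calca was not called (49.7 ± 26.6 CPM in Th against 25.7 ± 8.13 CPM in NF2 neurons), and a UMI of it was seen in 90.9% of Th cells, 89.7% of NF2 cells and 88% of satellite glia, so its shares lay near that in glia.

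Transcription factors of sensory neurons were called in both directions. Of 37 tested of 65 listed, 14 were higher in Th and 7 higher in NF2 neurons. Over all genes tested these shares were 10.6% and 9.71%. The median log2 fold change was 0.86, against 0.05 over all genes tested. Prdm12, a regulator of pain-sensing neurons, was at 79, 98.8, 58, 84.4 and 71.5 CPM in Th neurons and 0, 0, 0, 0.659 and 1.67 CPM in NF2 neurons (log2 fold change 6.38 ± 0.32, adjusted p = 3.7e-12). Zfhx4 had 3 UMIs in NF2 cells and 45.8 CPM in Th neurons. Tshz2, Isl2 and Id4 were higher in Th neurons as well (71.4 against 3.21 CPM, 517 against 110.5 CPM and 60.1 against 9.34 CPM). In NF2 neurons, Shox2, a homeodomain factor needed for TrkB-positive touch neurons, was at 1.93, 0.669, 0.84, 0.959 and 0.694 CPM in Th neurons and 86, 70.4, 48.7, 56 and 56 CPM in NF2 neurons (log2 fold change -6.07 ± 0.25, adjusted p = 2.3e-13). Nfib was at 0.237 ± 0.222 CPM in Th against 19.1 ± 8.75 CPM in NF2 neurons, and Maf, a factor of rapidly adapting mechanoreceptors, at 0.459 against 15.1 CPM. Tbx3 and Satb1 were higher in NF2 neurons too (19 against 127 CPM and 8.17 against 66.1 CPM). Pou4f1, the general sensory neuron factor, was not called (536 ± 81 CPM in Th against 276 ± 59.7 CPM in NF2 neurons), nor was Cbfb, the partner of Runx1 (119 against 135 CPM).

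Genes of the node of Ranvier and paranode were higher in NF2 neurons in 11 of 19 tested cases, and 2 were higher in Th neurons. Among all genes tested, 9.71% were higher in NF2 and 10.6% higher in Th neurons. The median log2 fold change of the list was -1.52. Cntn1 and Cntnap1, the axonal adhesion pair of the paranode, were at 104 against 538 CPM and 16.5 against 81.6 CPM, and Nfasc and Sptbn4, an adhesion molecule and a spectrin of the node, at 26.7 against 118 CPM and 7.32 against 21.1 CPM. Lgi3 was at 0, 0.892, 1.26, 0.32 and 1.04 CPM in Th neurons and 75.3, 62.8, 58.5, 61.3 and 50.6 CPM in NF2 neurons (log2 fold change -6.17 ± 0.27, adjusted p = 8.2e-13), and its relative Lgi2 at 0.989 ± 0.283 CPM in Th against 22.8 ± 2.47 CPM in NF2 neurons. The exceptions were Ank3 and Lgi1. Ank3, ankyrin-G, was at 381, 449, 426, 429.9 and 406 CPM in Th neurons and 154, 187, 141, 135 and 161 CPM in NF2 neurons, 2.65-fold higher in Th neurons (log2 fold change 1.41 ± 0.11, adjusted p = 3.7e-09), and Lgi1 was at 22 ± 6.53 CPM in Th against 6.78 ± 2.9 CPM in NF2 neurons. Ank2 was not called (578 ± 89.9 CPM in Th against 757 ± 50.6 CPM in NF2 neurons).

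Adhesion and guidance genes gave small sets in both directions, where 10.6% and 9.71% of all genes tested were higher in Th and in NF2 neurons. Of 10 tested cadherins, 3 were higher in each type (median -0.42). Cdh10 and Cdh1 joined Cdh9 in Th neurons (19.1 ± 5.46 CPM in Th against 1.92 ± 1.57 CPM in NF2 neurons and 80.2 against 13.9 CPM), and Pcdh7, Pcdh9 and Pcdh17 were higher in NF2 neurons, of which Pcdh7 was at 0, 0.892, 3.78, 0.32 and 0.694 CPM in Th neurons and 100.3, 61.7, 43.9, 50.1 and 45.2 CPM in NF2 neurons (log2 fold change -5.55 ± 0.34, adjusted p = 8e-11) and Pcdh17 at 4.76 ± 1.94 CPM in Th against 82.7 ± 31.1 CPM in NF2 neurons. Cdh11 was not called (37.8 against 52.4 CPM). Of 26 tested guidance genes, 6 were higher in Th and 7 higher in NF2 neurons (median -0.25). Sema3e, a secreted semaphorin, was at 59.7, 60.4, 50, 64.9 and 56.9 CPM in Th neurons and 0, 2.16, 0, 1.32 and 3.76 CPM in NF2 neurons (log2 fold change 4.68 ± 0.29, adjusted p = 9.6e-11), and the netrin receptor Unc5b had 1 UMI in NF2 cells (17.5 CPM in Th neurons). Sema5b had 1 UMI in Th cells and 10.8, 9.74, 40.6, 23.7 and 19.2 CPM in NF2 neurons. Nrp1 was not called (311 ± 50.5 CPM in Th against 324 ± 73.7 CPM in NF2 neurons), while Nrp2 was higher in NF2 neurons (38.1 against 126 CPM).

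Nuclear genes of the respiratory chain were called in NF2 neurons and not in Th neurons. Of 78 tested, 22 were called there and none in Th neurons, with a median log2 fold change of -0.78. Among all genes tested, 9.71% were called in NF2 and 10.6% in Th neurons. At an adjusted p under 0.01 with no minimum fold, 67 of the 78 were higher in NF2 neurons and 1 in Th neurons, where the same rule took 19.5% and 20.1% of all genes tested. Without mouse 5 the count at 2-fold was 13. Cox6a2, a subunit known from muscle and fast-spiking neurons, had no UMI in Th cells and 7.17, 10.8, 26, 31.6 and 17.1 CPM in NF2 neurons, at least 94.8-fold higher, and its next type over the 14 was PEP3_Trpm8 at 1.92 CPM. Cox7a1 was at 2.89, 5.13, 3.78, 3.52 and 1.39 CPM in Th neurons and 161, 72.5, 76.3, 77.1 and 67.8 CPM in NF2 neurons (log2 fold change -4.53 ± 0.22, adjusted p = 2.7e-12), highest in the 3 cells of mouse 1. Most others differed less, for example Cox4i1 at 1801 against 3672 CPM and Ndufa4, which was not called, at 1587 ± 287 CPM in Th against 2439 ± 904 CPM in NF2 neurons. The 13 protein-coding genes of the mitochondrial genome were not called, with a median of -0.19. The one with most UMIs, ATP6, was at 19241 ± 3062 CPM in Th against 25732 ± 3029 CPM in NF2 neurons (adjusted p = 0.009, under 2-fold). The UMIs of all mitochondrial rows made up a median of 6.88 ± 0.973% of a cell in Th and 8.22 ± 2.22% in NF2 neurons (SD, n = 5 mice, exact two-sided sign-flip permutation test, p = 0.5625).

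Of 79 tested cytosolic ribosomal protein genes, 1 was called, Rpl34, higher in Th neurons (49.2 ± 14.9 CPM in Th against 24.5 ± 7.18 CPM in NF2 neurons), and Rpl41 was not (3963 ± 954 CPM in Th against 3349 ± 665 CPM in NF2 neurons). The median was 0.31, and 10.6% and 9.71% of all genes tested were called higher in Th and in NF2 neurons. At an adjusted p under 0.01 with no minimum fold, 25 of the 79 were higher in Th neurons and 0 in NF2 neurons. The same rule took 20.1% and 19.5% of all genes tested. The count of ribosomal genes called was 0 or 2 in some of the fits that left out a mouse. Reads of ribosomal genes can be shared with near-identical copies. Of 19 tested immediate early and injury genes, 6 were higher in Th and 2 higher in NF2 neurons (median 0.76). Jun was at 111, 80.7, 103, 88.5 and 93.7 CPM in Th neurons and 78.8, 29.2, 24.4, 15.2 and 23 CPM in NF2 neurons (log2 fold change 1.77 ± 0.20, adjusted p = 3.8e-07), with the highest NF2 value in mouse 1, and Jund and Junb were at 648 against 258 CPM and 187 against 66.7 CPM. Klf4 was at 16.2 ± 4.24 CPM in Th against 7.07 ± 6.51 CPM in NF2 neurons. Gap43, a growth-cone protein, was at 3.85, 20.1, 4.62, 4.79 and 6.25 CPM in Th neurons and 64.5, 74.7, 37.4, 31 and 21.8 CPM in NF2 neurons (log2 fold change -2.38 ± 0.24, adjusted p = 7.9e-08), and Nr4a2 at 3.18 ± 1.6 CPM in Th against 12.3 ± 6.67 CPM in NF2 neurons. Without mouse 3, 1 of these 2 was called. Fos, Atf3 and Egr1 were not called (170.1 against 110.02 CPM, 121 against 66.9 CPM and 15.6 against 17 CPM), nor was Gadd45g (210.5 ± 43.8 CPM in Th against 136 ± 85.8 CPM in NF2 neurons). In tissue dissociated with enzymes, these genes can also respond to the procedure, and that part was not tested.

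UMIs per cell were higher in NF2 cells in 4 of 5 mice. The median per cell was 72805, 70110, 61037.5, 52015 and 47431 in Th cells and 37690, 163399, 123456, 95480 and 85221 in NF2 cells of mice 1 to 5. The difference was 1.52-fold in the mean (log2 ratio Th to NF2 of -0.60 ± 0.88, SD, n = 5 mice, exact two-sided sign-flip permutation test, p = 0.25). Mouse 1, whose median rests on 3 NF2 cells, decided the spread: without it the log2 ratio was -0.99 ± 0.17, with 4 of 4 mice in the same direction (exact permutation p = 0.125, the smallest that 4 pairs allow). With 5 pairs the smallest possible p is 0.0625, which the ratio of means reached (-0.82, 5 of 5 mice). Genes per cell were compared at equal depth. With each cell thinned to 20000 UMIs, which left out 8 Th cells and no NF2 cell, the median was 4601 ± 22 genes in Th and 4609.8 ± 209 genes in NF2 cells (SD, n = 5 mice, exact permutation p = 1). Without mouse 1, Th cells had 79 ± 50.2 genes more, in 4 of 4 mice. Without thinning the difference, Th minus NF2, was -894.7 genes. As shares of the cells recovered, Th cells made up 7.98 ± 2.36% and NF2 cells 1.62 ± 0.496% of a library (SD, n = 5 mice).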

How the data were processed

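Single-cell RNA libraries of lumbar dorsal root ganglia from 5 mice were analysed. The authors made droplet 3′ libraries, aligned reads to mm10 with Cell Ranger, filtered and clustered cells with Seurat, and deposited a table of raw UMI counts per gene and cell with an annotation that names the type and library of each cell. Of the 17271 rows, 17267 were mouse genes. The other 4, which held 143 of 224553362 UMIs, were left out. No column of another series was present. The libraries are called mice 1 to 5 in the order of their numbers, and were not tied to single sample labels.

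UMI counts were summed per type and mouse with Python 3.11.15 (pandas 2.3.3). The comparison of the 10 sums used edgeR 4.0.16 (R 4.3.3): filterByExpr, TMM scaling, mouse and type as terms, quasi-likelihood F-test and Benjamini-Hochberg adjustment over 9120 genes. Both types of a mouse come from the same animal and library, so mouse was the block. The correlations of same-mouse deviations from the type means were 0.070, 0.185, 0.062, 0.125 and 0.164. Genes were called at an adjusted p under 0.01 and 2-fold or more, if 25% or more of the cells of the higher type had a UMI. The edgeR p-values rest on how the difference between the types within a mouse varied over these 5 animals, moderated towards a trend over all genes. A fold against 0 UMIs was computed against a floor of 3 UMIs over the group. Ratios with 1 to 3 UMIs carry exact 95% intervals, and intervals and floors cover counting error only. Values per cell were compared with exact sign-flip permutation tests over mice. The scripts were tested on simulated counts. Doublets were not called here, and the counts do not say whether the authors removed any.

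The named genes were the type names, the C-LTMR and A-delta LTMR markers, the called members of the other marker lists, the 8 largest changes in each direction with a mean of at least 20 CPM, and from each list up to 2 called members per direction with the largest change and the member with the highest level that was not called. Other list members, the genes highest in both types and Nts were chosen after their values were seen. The comparison, the members and the 36 gene lists were chosen with earlier results of these data known. Alternatives were DESeq2 1.42.0, no TMM scaling, no filter, no replicate block, each mouse left out, equal cell numbers, mice with at least 10 cells of both types, all 14 types in 1 fit, other thresholds and, added after seeing the data, cells with at most 10% mitochondrial UMIs. Sequences are from RefSeq tables of GRCm38.p6, and the count table gives no coordinates. Single values of a few genes of the lists are not reported here.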

Additional observations from a re-analysis of the deposited data

Results flagged for a closer look

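A sample was singled out where, among the 5 mice of a type, the highest or lowest value lay far from the nearest other, with the gap divided by the range above Dixon's critical value for 5 values. Of 224 groups of values looked at, 13 met this, and chance flags about 1 in 20 groups. Most were NF2 neurons of mouse 1, which rest on 3 cells. There, the gap was 0.721 of the range for Lrrn2, 0.862 for Calb1, 0.756 for Gabrg1, 0.750 for Gnas, 0.779 for Jun and 0.900 for Cox7a1, each highest in mouse 1. Syt7 (0.752) and Nrp1 (0.720) were lowest in that mouse. The same 3 cells had the highest median of genes per cell at 20000 UMIs (4979 genes, gap 0.846) and the highest median mitochondrial percent (12.1%, gap 0.762). The part of these cells' quality in the values of mouse 1 was not tested. Of the other NF2 values, Cacnb3 was lowest in mouse 2 (0.768). In Th neurons, Vsnl1 was highest in mouse 5 (0.725) and Gap43 in mouse 2 (0.852). Outside the mouse genes, the row named EC18 had 4 UMIs in both types together, 2 in each, above the limit of 3 that a count of 0 allows, and 86 UMIs in all cells.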

How the results depend on the processing

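The counts of called genes, 964 in Th and 886 in NF2 neurons, moved by over 1.5 times under few alternatives. Equal numbers of cells gave 639 in Th neurons, and no minimum fold gave 1834 and 1782. Without the replicate block that pairs the types within a mouse, 964 and 877 genes were called, of which 932 and 859 were shared with the paired fit, which changed no call of a named gene and no count of a list by over 1.5 times. Leaving out each mouse gave 830 to 1024 genes higher in Th and 751 to 995 higher in NF2 neurons. The log2 ratio of UMIs per cell ranged from -0.99 to -0.45 in the same way, and the difference in genes per cell from -49 to 79, while without thinning it was -894.7. Of the 107 named genes that were called, 104 kept their side of the threshold in adjusted p under every alternative in which they were tested. The exceptions were Apoe, Tmem63c and Pde7a, and no named gene that was called changed direction. Of the 72 counts of list members by direction, 38 moved by over 1.5 times under at least 1 alternative, changed thresholds included. Depth limits genes with few UMIs in the NF2 sums, above all in mouse 1, whose 279016 UMIs were the fewest.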
